A study of Mus musculus with 20 samples.

Results

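The genes described here mark the fetal liver or the ductular reaction, a proliferation of bile-duct-like cells seen in injured liver, and were followed in mouse livers with and without Pck1, on chow or on a diet that induces steatohepatitis. They were taken by name from the deposited count table and make up 10 of its 46095 gene symbols: Afp, H19, Igf2, Gpc3, Cd24a, Prom1, Sox9, Krt7, Krt19 and Epcam. The labels give RNA sequencing of liver from 20 mice, in 4 groups of 5. Wild-type mice on chow (WT chow), wild-type mice on the NASH diet (WT NASH), mice labelled Pck1-cKO on chow (KO chow) and Pck1-cKO mice on the NASH diet (KO NASH) had been fed for 24 weeks and were 31 to 33 weeks old. The knockout is liver-specific per the series title; the Cre driver, the composition of the NASH diet and the sex of the mice are not stated. Pck1 encodes the cytosolic phosphoenolpyruvate carboxykinase of gluconeogenesis, and the question was how its loss and the diet change the liver transcriptome.

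In the fetal liver, hepatoblasts express alpha-fetoprotein (Afp), the growth factor Igf2, the non-coding RNA H19 and the cell-surface proteoglycan glypican-3 (Gpc3), and these genes are largely silenced after birth. H19 and Igf2 are neighbouring imprinted genes, H19 being expressed from the maternal and Igf2 from the paternal copy. Bile duct cells and liver progenitor cells carry the keratins Krt7 and Krt19, the adhesion molecule Epcam, the transcription factor Sox9 and the surface proteins Prom1 and Cd24a, and transcripts of both kinds can reappear in chronic injury and in liver tumours.

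Library totals ranged from 9958935 to 20601955 counts. Pck1, the check of the genotype labels, was at 3573 ± 1139 CPM (CPM are counts scaled to a common library size, here with TMM factors; mean ± SD, n = 5 in every group) in WT chow. It was 2290 ± 511 CPM in WT NASH, and lower in KO, with 626 ± 175 CPM on chow and 445 ± 112 CPM on the NASH diet. Sex, read from Y-linked genes, was not balanced. Every WT chow liver was male, whereas WT NASH had a single male, replicate 4. Females in the knockout were replicates 3 and 5 on chow and replicate 2 on the NASH diet. The slope of expression on gene length was negative in 6 libraries (WT chow 3, 4 and 5, WT NASH 4, KO chow 4 and 5), from -0.34 to -0.25, against 0.01 to 0.19 in the other 14. KO NASH 1 and KO NASH 5 were the closest pair of libraries, with a chi-square per gene of 8.39 against 23.4 to 499.7 in the other 39 pairs within a group. They differed by more than counting noise and were kept as 2 samples, but this does not tell 2 mice from 2 preparations of 1 liver, in which case KO NASH would hold 4 mice and its p-values would be too small. The H19, Sox9, Igf2 and Epcam results are therefore given with both summed and with both left out, and calls of genes in the wider lists are marked where they were lost without both. The labels do not say whether the mice shared litters or cages, so p-values measure the spread between these samples.

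H19 is the host of a microRNA, miR-675, and the 2 mature arms are shown because H19 is the gene on which most results below turn. In RefSeq GRCm38.p6 they lie on the minus strand at chr7:142577112-142577133 and chr7:142577078-142577099, within the H19 gene. Capitals mark the seed, bases 2 to 8.
mmu-miR-675-5p: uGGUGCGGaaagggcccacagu
mmu-miR-675-3p: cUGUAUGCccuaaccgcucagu
The seeds of the arms differ, and the mature forms were not analysed here.

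All 10 genes were expressed at low levels but passed the low-count filter with the 14440 tested genes. Per kilobase of exon, mean levels in WT chow ran from 0.0929 ± 0.0528 CPM for Igf2 to 2.91 ± 1.65 CPM for Cd24a, and Epcam, at 1.02 ± 0.627 CPM, was the next highest. H19 was second lowest in WT chow, at 0.180 ± 0.250 CPM per kilobase, and highest of the 10 in KO NASH, at 14.9 ± 15.4. Cd24a was also highest per kilobase in WT NASH (1.95 ± 0.670, followed by Sox9 at 1.31 ± 0.223) and in KO chow (2.98 ± 3.19, followed by H19 at 0.802 ± 0.475). In each group, the intervals of mean ± 1 SD overlapped between every pair of neighbours in this order. Hepatocyte markers such as Alb, at 35310 to 106300 CPM, showed the tissue to be liver. Several defining markers of bile duct cells were close to absent: Cldn7 was at 0 in 14 of 20 libraries, Sctr in 3 and Cftr in 1. In whole liver, more cells of a type and more RNA per cell cannot be told apart.

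**Figure D1:**
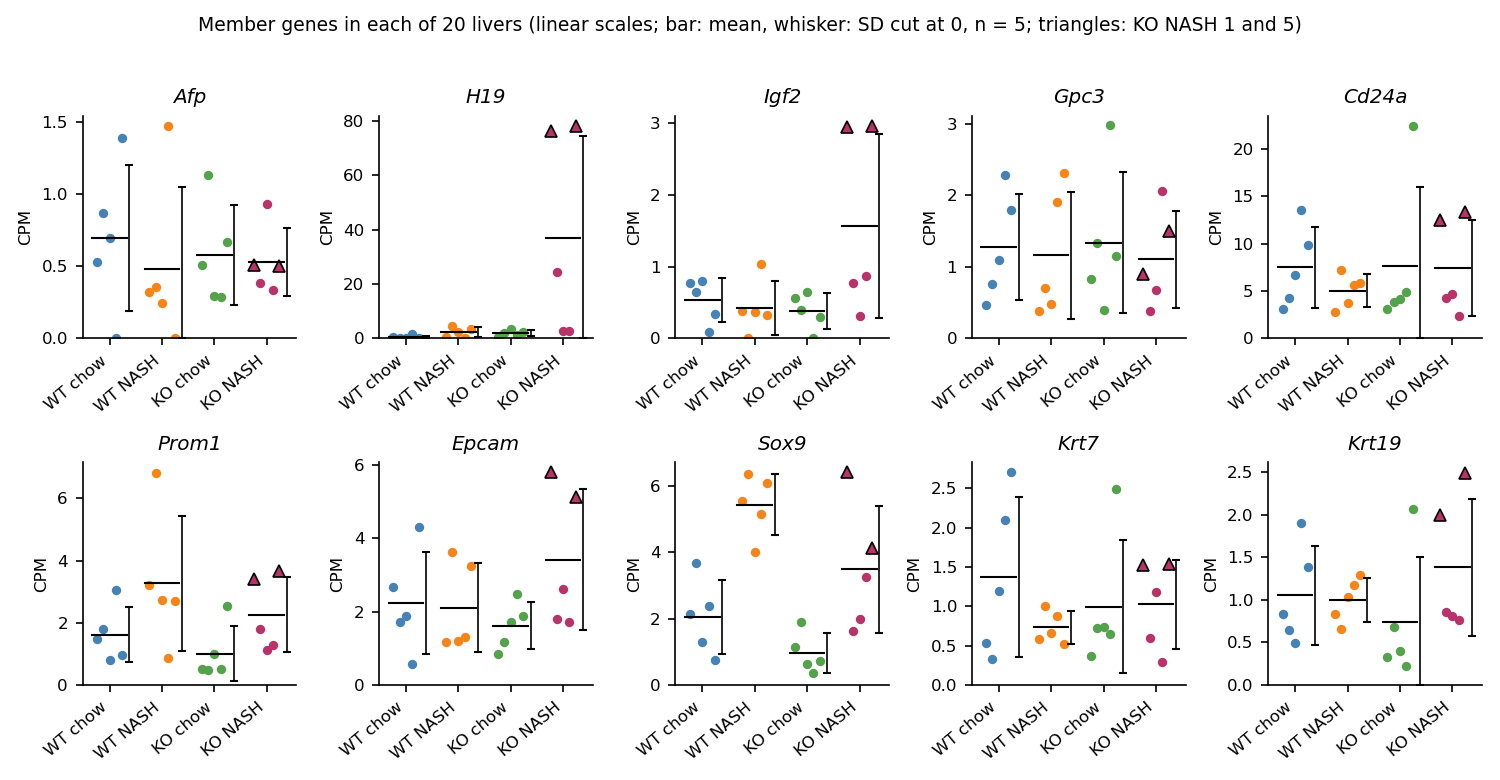
Level of each of the 10 genes in each of the 20 livers, in CPM on linear axes that differ between panels; points are livers, bars group means, whiskers 1 SD cut at 0 (n = 5), and triangles KO NASH 1 and 5. H19 reached 76.1 and 78.0 CPM in these 2 livers, and the 5 WT NASH livers lay above all WT chow livers for Sox9.

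Few of the 10 genes passed the test, edgeR's quasi-likelihood F test at an adjusted p (Benjamini-Hochberg over all tested genes) under 0.05. None was called for WT NASH against WT chow, where 5.93% of all tested genes were called. H19 and Sox9 were among the 3191 of 14440 tested genes with an unadjusted p under 0.05. DESeq2 called Sox9 (1496 genes in all), and limma voom with quality weights called Sox9 and Prom1 (5866 genes in all). None was called for KO chow against WT chow (5.53% of all tested genes). H19 and Sox9 were again among the genes with an unadjusted p under 0.05, 2795 of 14440, and DESeq2 and voom called none of the 10. H19 alone was called for KO NASH against WT NASH (9.65%), H19 and Sox9 for KO NASH against KO chow (3.29%), and H19 for KO NASH against WT chow (16.6%). For the interaction, which sets the genotype difference under the NASH diet against the one under chow, none was called (0.139% of all tested genes). Igf2 was among the 1191 of 14440 tested genes with an unadjusted p under 0.05, and DESeq2 and voom called none of the 10. These comparisons share groups, so their calls are not separate evidence. The median log2 difference of the 10 genes was -0.12, -0.45, 0.50, 1.00, 0.45 and 0.79 in these 6 comparisons in turn, and that of all tested genes lay between -0.03 and 0.02.

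**Figure D2:**
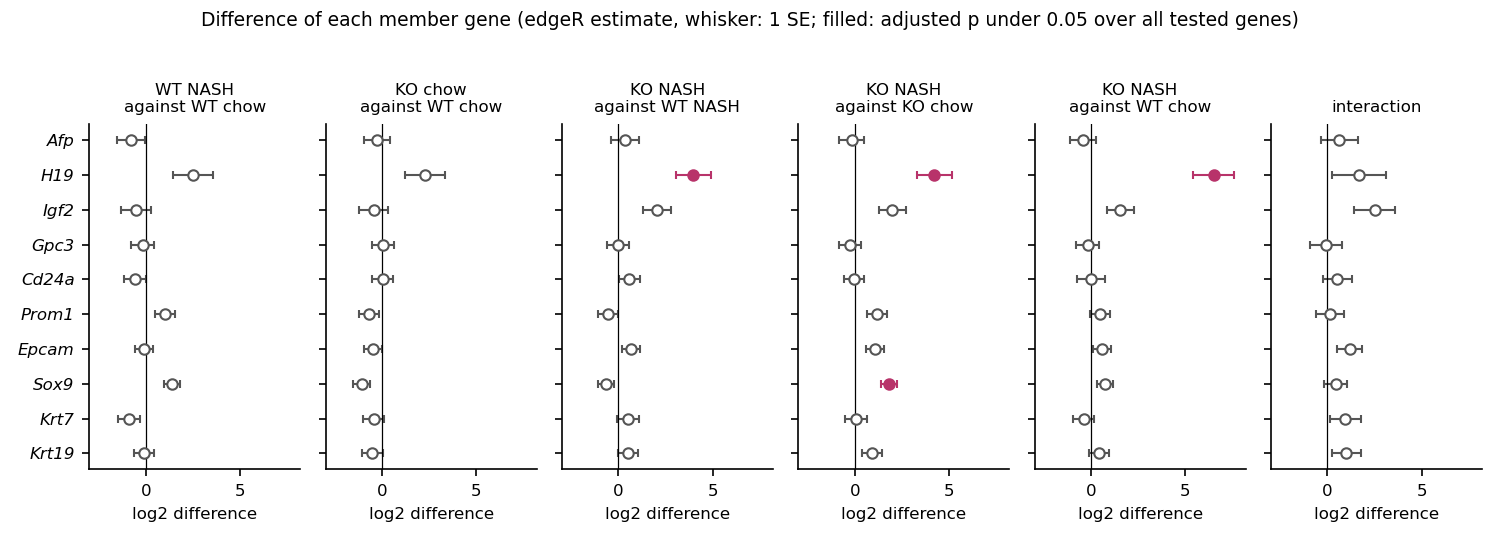
Log2 difference of each of the 10 genes in the 6 comparisons, with 1 SE; filled points had an adjusted p under 0.05 over all tested genes (edgeR). The filled points are H19 in 3 comparisons (3.98, 4.21 and 6.50) and Sox9 in 1 (1.82).

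H19 (ENSMUSG00000000031, lincRNA, GRCm38 chromosome 7, 142575529 to 142578143, minus strand, 3 exons) was the most changed of the fetal genes. In WT chow it was at 0.355, 0, 0.199, 1.52 and 0.139 CPM in replicates 1 to 5, which is 0 to 16 counts, and a count of 0 in replicate 2 allows up to 0.163 CPM. In WT NASH it was at 0.581, 4.39, 2.48, 0.294 and 3.49 CPM, and in KO chow at 0.510, 2.13, 3.56, 1.23 and 2.43 CPM. Both groups were low and overlapped WT chow, with 3 of 5 livers each above every WT chow liver. In KO NASH the 5 livers had 76.1, 24.3, 2.79, 2.64 and 78.0 CPM (1784, 568, 45, 55 and 1721 counts). Replicates 1, 2 and 5 of KO NASH thus stood far above all other livers, and the other 2 lay within the range of WT NASH.

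H19 rose in KO NASH against WT NASH by a log2 difference of 3.98 (SE 0.920), 15.7-fold, with an edgeR adjusted p of 0.0113. Against KO chow it rose by 4.21 (SE 0.927, edgeR adjusted p = 0.0208). Against WT chow it rose by 6.50 (SE 1.10, edgeR adjusted p = 0.00181), and there the groups did not overlap. How many of all tested genes have groups that do not overlap is not given, here or for the genes below. The differences between the low groups were 2.53 for WT NASH against WT chow (edgeR adjusted p = 0.167) and 2.29 for KO chow against WT chow (edgeR adjusted p = 0.238). The interaction was 1.68 (SE 1.42, edgeR adjusted p = 0.843), so the genotype difference was not shown to depend on the diet. Whether counting used strand is not stated, and H19 shares 84 exonic bases with Mir675 and 71 and 70 with short transcripts annotated on the opposite strand.

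The size of the H19 difference rested on KO NASH 1 and 5. Without both, KO NASH against WT NASH was 2.11 (edgeR adjusted p = 0.227, the alternatives spanning 0.00117 to 0.227), against KO chow 2.32 (0.207, range 0.00142 to 0.576) and against WT chow 4.57 (0.0254, range 8.76e-08 to 0.0633), still called. With both summed into 1 sample, the edgeR values were 3.53 (adjusted p = 0.0331), 3.75 (0.0522) and 6.02 (0.00522). Voom with quality weights called H19 in none of the 3 (2.69, 3.57 and 5.87, adjusted p = 0.0551, 0.0701 and 0.0633). The call against KO chow was also lost without KO chow 1 (3.96), KO chow 4 (4.09) or KO NASH 5 (3.73), with edgeR adjusted p of 0.0551, 0.0590 and 0.0574. Leaving out any other single library kept all 3 calls.

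Within the sexes, H19 in KO NASH against WT NASH was at 7.05 in males, with 1 WT NASH liver, and 3.16 in females, with 1 KO NASH liver (edgeR adjusted p = 0.0984 and 0.175, each with the lone liver assumed to vary like the other groups). Males alone gave 6.63 for KO NASH against WT chow (edgeR adjusted p = 0.00665). Sex and the length slope as terms gave 4.43 for KO NASH against WT NASH (edgeR adjusted p = 0.0137), and the 14 libraries without a negative slope gave 3.72 (edgeR adjusted p = 0.0181). Summed markers of other cell types were also read in the KO NASH livers. Replicates 1 and 5 had the highest sums of the 9 bile duct markers outside the 10 genes, 298 and 282 CPM against 97.2 to 172 in the others. They also had the highest stellate sums, 539 and 542 CPM against 341 to 400. Replicate 2 had the highest neutrophil sum (25.0 CPM, range 3.31 to 25.0). In WT NASH 4 the bile duct sum was 531 CPM and the stellate sum 713 CPM, with H19 at 0.294 CPM. The summed proliferation markers split the group as H19 did, with 16.6, 33.5 and 17.8 CPM in replicates 1, 2 and 5 against 6.46 and 9.39 CPM in replicates 3 and 4. In WT NASH these sums ran from 6.65 to 17.0 CPM, the highest in replicate 5, where H19 was at 3.49 CPM. Of the 6 proliferation markers none was called in KO NASH against WT NASH or KO chow, and Mki67 (2.11) and Top2a (1.65) were called in KO NASH against WT chow (edgeR adjusted p = 0.00656 and 0.0202). The part of these marker sums in the H19 values was not tested.

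**Figure D3:**
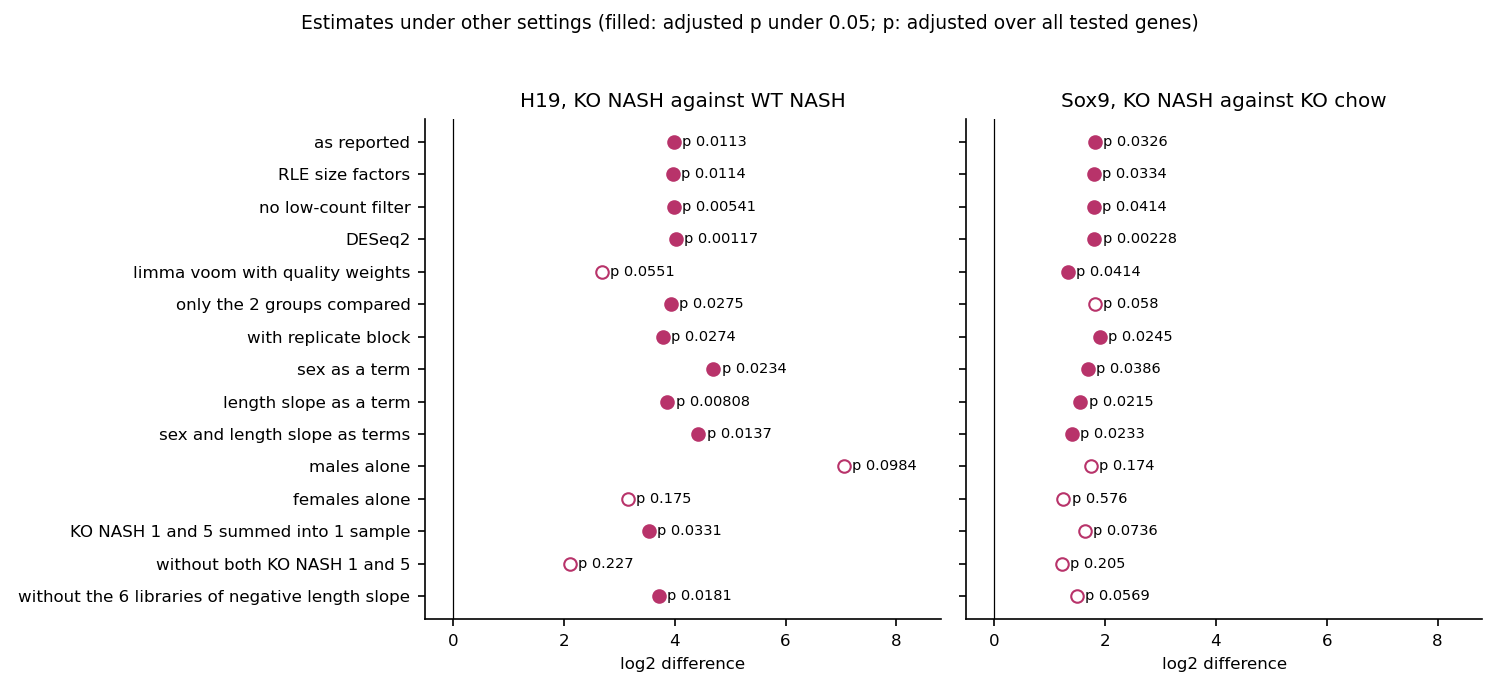
Log2 difference of H19 (KO NASH against WT NASH) and Sox9 (KO NASH against KO chow) as reported and under other settings; filled points had an adjusted p under 0.05, printed beside each. Both estimates were positive throughout, from 2.11 to 7.05 for H19 and from 1.22 to 1.91 for Sox9, and the smallest of each came from the fit without both KO NASH 1 and 5.

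Igf2 (ENSMUSG00000048583, chromosome 7, 142650766 to 142666816, minus strand), the neighbour of H19, was highest in the same 2 livers. Its KO NASH values were 2.94, 0.769, 0.310, 0.862 and 2.95 CPM (69, 18, 5, 18 and 65 counts). The other 15 livers held 0 to 1.03 CPM, with 0 counts in WT NASH 2 and KO chow 4, which allow up to 0.178 and 0.218 CPM. Only KO NASH 1 and 5 thus lay outside the range of the other groups. The log2 difference for KO NASH against WT NASH was 2.06 (SE 0.754, edgeR adjusted p = 0.0886) and that against KO chow 1.98 (SE 0.713, edgeR adjusted p = 0.117). DESeq2 (2.00, adjusted p = 0.0411), voom (2.58, adjusted p = 0.0227) and the fit without the 6 libraries of negative slope (2.53, edgeR adjusted p = 0.0227) called the first, and adjusted p spanned 0.0227 to 0.899 across alternatives. With KO NASH 1 and 5 summed it was 1.74 (edgeR adjusted p = 0.200), and without both 0.81 (edgeR adjusted p = 0.653). Igf2 counts are uncertain, since 3596 exonic bases are shared with the annotated read-through gene Gm49394.

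Igf2 has 4 promoters in RefSeq, and counts per gene do not tell which start site was used. The promoter shown was chosen, after the motifs were counted, because it held the most matches to the letters GGAATG (TEAD, the partner of YAP, searched on both strands). It covers the 250 bases before the start at chr7:142661272-142661521 (RefSeq GRCm38.p6, minus strand, 5′ to 3′), with the 2 matches, 218 and 112 bases before the start, in capitals.
Igf2 promoter 2: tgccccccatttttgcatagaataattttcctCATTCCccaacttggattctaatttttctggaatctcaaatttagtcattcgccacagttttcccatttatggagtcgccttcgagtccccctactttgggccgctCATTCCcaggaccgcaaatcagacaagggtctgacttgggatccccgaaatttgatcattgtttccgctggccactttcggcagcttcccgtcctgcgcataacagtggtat
Of 32851 promoter windows of this length, 12.6% held at least 1 such match, and neither match overlapped another searched motif.

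Afp (ENSMUSG00000054932, chromosome 5, 90490737 to 90508907, plus strand), the serum marker of hepatoblasts and of liver tumours, stayed near the detection limit in every group. Its range was 0 to 1.39 CPM in WT chow and 0 to 1.47 under the NASH diet, and among KO livers 0.290 to 1.13 on chow and 0.335 to 0.931 under the NASH diet, which is at most 28 counts in a liver. The groups overlapped in all comparisons, and the log2 difference for KO NASH against WT NASH was 0.36 (SE 0.732, edgeR adjusted p = 0.802). Gpc3 (ENSMUSG00000055653, chromosome X, 52272426 to 52613950, minus strand) averaged 1.28 ± 0.746 CPM in WT chow and 1.16 ± 0.891 under the NASH diet, and in KO livers 1.34 ± 0.982 on chow and 1.10 ± 0.672 under the NASH diet. Its log2 differences lay between -0.25 and 0.06, with edgeR adjusted p of 0.814 to 0.992. Neither gene was called in any comparison, and the SE of the Gpc3 differences, 0.579 to 0.839, limits what could be detected at these counts.

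Sox9 (ENSMUSG00000000567, chromosome 11, 112782224 to 112787760, plus strand), a transcription factor of bile duct and progenitor cells, was the second gene to pass the test. Its levels were 2.13, 3.68, 1.29, 2.37 and 0.762 CPM in WT chow and 5.55, 6.35, 4.00, 5.15 and 6.07 CPM in WT NASH. All 5 WT NASH livers thus lay above all WT chow livers, but all 5 WT chow livers were male and 4 of the WT NASH livers female. The log2 difference was 1.39 (SE 0.434), 2.62-fold, with an unadjusted p of 0.0044 and an edgeR adjusted p of 0.0616, so the gene was not called. KO chow livers had 1.16, 1.89, 0.644, 0.363 and 0.729 CPM, and KO NASH livers 6.40, 1.62, 1.99, 3.26 and 4.13 CPM. Replicates 1, 3, 4 and 5 of KO NASH lay above every KO chow liver, and Sox9 rose by 1.82 (SE 0.443, edgeR adjusted p = 0.0326), 3.54-fold.

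The genotype differences of Sox9 did not pass the test: they were -1.07 for KO chow against WT chow (SE 0.448, edgeR adjusted p = 0.182) and -0.64 for KO NASH against WT NASH (SE 0.419, edgeR adjusted p = 0.359). The interaction was 0.44 (SE 0.607, edgeR adjusted p = 0.935), so the diet difference was not shown to differ between genotypes. Both Sox9 diet differences sat near the threshold. WT NASH against WT chow was called with the length slope as a term (1.20, edgeR adjusted p = 0.0412), with sex and slope (1.74, 0.0262), by DESeq2 (1.39, 0.0182) and by voom (1.86, 0.00463), the alternatives spanning 0.00463 to 0.449. It was also called without WT chow 2 (1.72), WT NASH 4 (1.41), KO chow 2 (1.39) or KO chow 4 (1.39), while the males gave 1.31 with 1 WT NASH liver (edgeR adjusted p = 0.449). KO NASH against KO chow was lost without both KO NASH 1 and 5 (1.22, edgeR adjusted p = 0.205), with both summed (1.64, 0.0736), among males (1.75, 0.174), among females (1.25, 0.576), without the 6 libraries of negative slope (1.49, 0.0569) and with only these 2 groups fitted (1.82, 0.0580). It was lost too without KO chow 1, 4 or 5 (1.89, 1.63 and 1.71) or KO NASH 1, 4 or 5 (1.49, 1.85 and 1.75), with edgeR adjusted p of 0.0598, 0.0774, 0.0717, 0.0818, 0.0595 and 0.0733 in that order. The slope term gave a call for KO chow against WT chow (-1.32, edgeR adjusted p = 0.0365, range 0.0365 to 0.648). Sex and slope gave one for KO NASH against WT NASH (-1.43, edgeR adjusted p = 0.0315), as did voom (-0.88, adjusted p = 0.0319).

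Prom1 (ENSMUSG00000029086, chromosome 5, 43993620 to 44102032, minus strand), the progenitor surface marker CD133, had group means in the same order as Sox9. They were 1.62 ± 0.889 CPM (WT chow), 3.27 ± 2.18 (WT NASH), 1.01 ± 0.889 (KO chow) and 2.26 ± 1.20 (KO NASH). In WT NASH, replicate 4 had 0.883 CPM and the others had 2.71 to 6.82. The log2 differences were 1.04 for WT NASH against WT chow (SE 0.536, edgeR adjusted p = 0.255) and 1.18 for KO NASH against KO chow (SE 0.540, edgeR adjusted p = 0.206). Voom called the first (1.55, adjusted p = 0.0259), while the estimate was -0.11 with sex as a term and -0.86 among males, with 1 WT NASH liver (edgeR adjusted p = 0.966 and 0.709; alternatives 0.0259 to 0.998). The second was called by voom (1.73, adjusted p = 0.0343) and without the 6 libraries of negative slope (1.79, edgeR adjusted p = 0.0403). Prom1 shares 424 of its 7175 exonic bases with an antisense gene, and reads there could come from either if counting ignored strand.

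Epcam (ENSMUSG00000045394, chromosome 17, 87635979 to 87651129, plus strand), which joins epithelial cells and is made by bile duct but not by mature liver cells, was highest in KO NASH 1 and 5. The KO NASH livers had 5.80, 1.80, 2.61, 1.72 and 5.12 CPM, against 0.834 to 2.47 CPM in KO chow. Among wild-type livers it spanned 0.570 to 4.30 CPM on chow and 1.16 to 3.62 under the NASH diet. All groups overlapped. The log2 difference was 1.09 for KO NASH against KO chow (SE 0.480, edgeR adjusted p = 0.189) and was 0.86 with KO NASH 1 and 5 summed (edgeR adjusted p = 0.353) and 0.34 without both (edgeR adjusted p = 0.760).

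Krt19 (ENSMUSG00000020911, chromosome 11, 100140810 to 100148665, minus strand) and Krt7 (ENSMUSG00000023039, chromosome 15, 101411043 to 101430313, plus strand) are the keratins used to stain bile ducts. Krt19 averaged 1.05 ± 0.581 CPM (WT chow), 0.998 ± 0.257 (WT NASH), 0.738 ± 0.762 (KO chow) and 1.39 ± 0.808 (KO NASH). The 3 highest Krt19 livers were KO NASH 5 (2.49 CPM), KO chow 5 (2.07) and KO NASH 1 (2.00). Krt7 was at 1.37 ± 1.01, 0.731 ± 0.208, 0.996 ± 0.849 and 1.03 ± 0.565 CPM in the same groups, and was highest in WT chow 5 (2.70 CPM) and KO chow 5 (2.49); it shares 77 exonic bases with an antisense gene. Neither keratin was called. The largest log2 difference of Krt19 among the pairs of groups was 0.92, for KO NASH against KO chow (SE 0.524, edgeR adjusted p = 0.299), and that of Krt7 was -0.89, for WT NASH against WT chow (SE 0.594, edgeR adjusted p = 0.384).

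Cd24a (ENSMUSG00000047139, chromosome 10, 43578284 to 43584265, plus strand) encodes a small surface sialoglycoprotein of progenitor cells and of some leukocytes, and was the highest of the ductular genes in CPM per kilobase. It spanned 3.14 to 13.6 CPM in WT chow and 2.84 to 7.18 under the NASH diet, and in KO livers 3.06 to 22.4 on chow and 2.35 to 13.4 under the NASH diet. The 22.4 CPM of KO chow 5 stood apart from the next value in its group, 4.94 CPM. No comparison was called, the log2 difference being 0.57 for KO NASH against WT NASH (SE 0.562, edgeR adjusted p = 0.566). KO chow 5 also had the highest sums in its group of neutrophil markers (47.6 CPM, range 2.93 to 47.6), macrophage markers (552 CPM, range 190.7 to 552), stellate markers (982 CPM, range 212 to 982), B and T cell markers (13.9 CPM, range 4.83 to 13.9) and the other bile duct markers (264 CPM, range 66.1 to 264). Their part in the Cd24a, Krt7 and Krt19 values of this liver was not tested.

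Cd24a, Gpc3 and Krt7 stood higher in the 6 libraries of negative length slope than in the other 14, with medians of 8.25 against 4.24 CPM for Cd24a, 1.86 against 0.735 for Gpc3 and 1.64 against 0.632 for Krt7. Krt19 (1.28 against 0.818 CPM) and Afp (0.682 against 0.442) were also higher there. H19 and Sox9 stood lower, with medians of 0.764 against 2.71 CPM for H19 and 1.03 against 3.47 for Sox9, as did Prom1 (0.926 against 1.79) and Igf2 (0.325 against 0.600). Epcam was at 1.89 against 1.76 CPM. These libraries are spread unevenly over the groups (WT chow 3, KO chow 2, WT NASH 1, none from KO NASH), so that the slope and the group are partly confounded.

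Among the 10 genes, Cd24a and Krt7 had the highest Pearson r of log2 CPM over the 20 livers, 0.88 (Spearman 0.82), with 0.81 in the 14 libraries without a negative slope and 0.86 in the other 6. Within these subsets other pairs were closer, Cd24a with Epcam in the 14 (0.84) and Cd24a with Prom1 in the 6 (0.90). Prom1 and Sox9 had r = 0.65 over 20 livers, 0.80 in the 14 and 0.24 in the 6. H19 and Igf2, the neighbours, had r = 0.35, and -0.23 without KO NASH 1 and 5. H19 and Cd24a had r = 0.34 over 20 livers but 0.74 in the 14, and 0.01 without KO NASH 1 and 5. The points share depth, sex, slope and group, and are given as a description. KO NASH 1 and 5 held ranks 2 and 1 among the 20 livers for H19 and Igf2, 1 and 2 for Epcam, 3 and 1 for Krt19, 3 and 2 for Prom1, 4 and 3 for Cd24a, 5 and 4 for Krt7 and 1 and 6 for Sox9, but 9 and 11 for Afp and 11 and 7 for Gpc3.

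**Figure D4:**
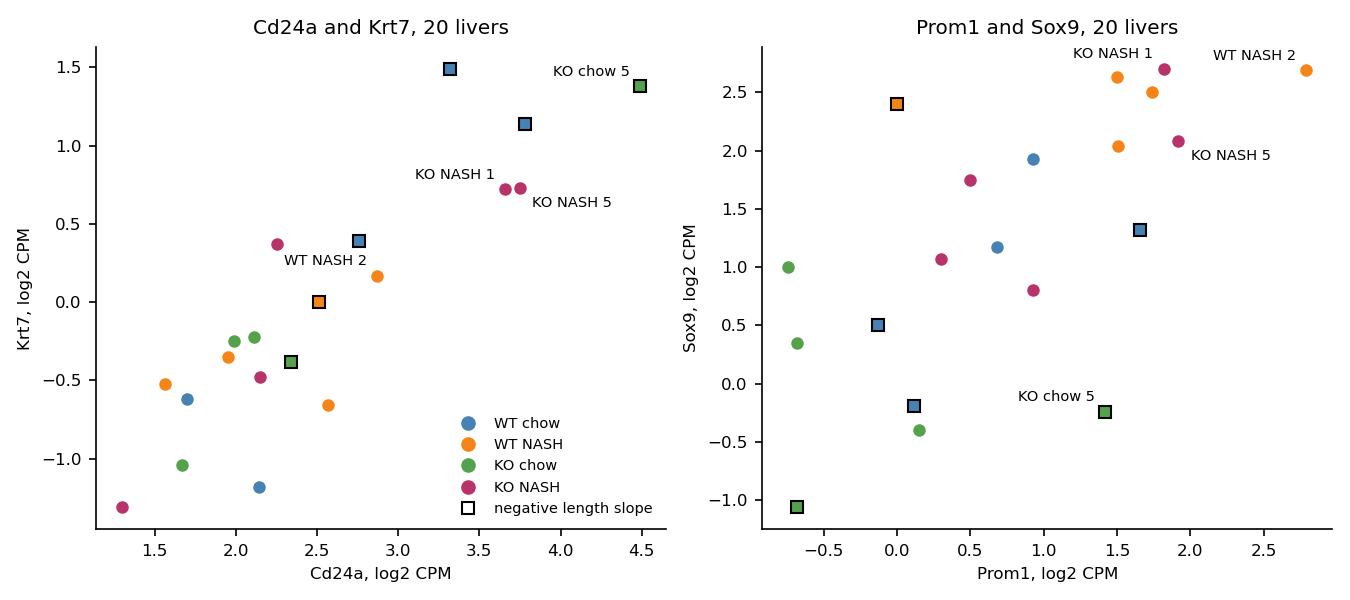
Log2 CPM of Cd24a against Krt7 and of Prom1 against Sox9 in the 20 livers; colours are groups, and squares mark the 6 libraries of negative length slope. The Cd24a and Krt7 points run along 1 line through all groups (r = 0.88), with KO chow 5 at its upper end, while Prom1 and Sox9 (r = 0.65) spread more, with KO chow 5 and WT NASH 4 off the trend.

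Since Krt7 followed Cd24a most closely, the 250 bases before its RefSeq start are shown (chr15:101412153-101412402, GRCm38.p6, plus strand, 5′ to 3′); for Cd24a, H19, Sox9 and Krt19 no promoter was used here. Capitals mark the 4 matches to GGGCGG, the GC box bound by Sp factors, on either strand, at 141, 128, 56 and 24 bases before the start.
Krt7 promoter: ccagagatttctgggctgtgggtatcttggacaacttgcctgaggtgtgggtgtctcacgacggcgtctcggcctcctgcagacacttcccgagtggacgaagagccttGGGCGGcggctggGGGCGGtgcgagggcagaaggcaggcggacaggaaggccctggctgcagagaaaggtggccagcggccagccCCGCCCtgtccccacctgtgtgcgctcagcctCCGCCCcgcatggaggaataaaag
The window held no match, on either strand, to GTTAAT (HNF1), TATAAA (the TATA box), CCAAT (the CCAAT box), TGANTCA (AP-1), GGAATG (TEAD) or GTGGGAA (RBPJ), and 32.7% of 32851 windows of this length held at least 1 GC box.

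Among all tested genes, those whose log2 CPM was most like H19 over the 20 livers were Pcolce (r = 0.87), Nid1 (0.86) and Mfge8 (0.85), and without KO NASH 1 and 5 these were 0.77, 0.70 and 0.67. Nid1 is a basement membrane protein and Mfge8 a secreted protein that bridges apoptotic cells to phagocytes. Chka (r = 0.92), Atp11a (0.90) and Rfx7 (0.89) were most like Sox9, with 0.92, 0.92 and 0.90 without KO NASH 1 and 5. Chka encodes choline kinase alpha. These genes were chosen for their likeness over the same livers, so no test of them is given. The genes most like Igf2 were Adgrg1 (0.80), Mamld1 (0.80) and Podxl (0.79), those like Prom1 were Slc5a1 (0.84), Atp6v0d2 (0.83) and Foxj1 (0.82), and those like Epcam included Sparcl1 (0.81) and Col4a3 (0.69). Cd24a was most like Krt7 (0.88), Id1 (0.88) and Mmp7 (0.87), and Krt7 like Cd24a (0.88), Tmem204 (0.83) and Calm3 (0.82). Krt19 was most like Mmp13 (0.78), Alpk1 (0.77) and Pqlc3 (0.76), Afp like P2rx4 (0.72), Pcdh17 (0.68) and LOC102640451 (0.67), and Gpc3 like Tmem50b (0.70), Rita1 (0.70) and Hprt (0.69).

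A wider set of bile duct and ductular genes was read beside the 10. List calls lost without both KO NASH 1 and 5 stand beside a loss over all tested genes in that fit. Calls fell there from 1393 to 373 in KO NASH against WT NASH and from 475 to 104 against KO chow. In KO NASH against WT chow they fell from 2390 to 267. Of 24 tested, 3 were higher and 1 lower in WT NASH against WT chow (5.93% of all tested genes called in either direction), 2 higher in KO chow against WT chow (5.53%), 2 higher and 1 lower in KO NASH against WT NASH (9.65%), 2 higher in KO NASH against KO chow (3.29%) and 6 higher in KO NASH against WT chow (16.6%), and none was called for the interaction (0.139%). Their median log2 difference in KO NASH against WT chow was 0.72 (all tested genes 0.02), and in KO NASH against WT NASH 0.16 (all tested genes 0). Krt23, a keratin of bile duct cells, averaged 3.50 ± 2.07 CPM (WT chow), 0.633 ± 0.375 (WT NASH), 30.2 ± 25.5 (KO chow) and 18.4 ± 3.63 (KO NASH). All 5 KO livers on each diet lay above all WT livers on that diet. Krt23 was the 1 list gene lower in WT NASH against WT chow (-2.38, edgeR adjusted p = 0.0337), a call lost with sex as a term and by voom. That call was also lost with sex and slope as terms, among males and with only these 2 groups fitted. Of the 20 fits that left out 1 library, 6 lost it. It rose by 3.08 in KO chow against WT chow (edgeR adjusted p = 0.00421) and by 4.75 in KO NASH against WT NASH (edgeR adjusted p = 0.000263). Vtcn1, a B7-family surface protein, was at 0.140 ± 0.111, 0.853 ± 0.535, 1.15 ± 0.546 and 2.37 ± 1.30 CPM in the same order, and rose by 4.00 in KO NASH against WT chow (edgeR adjusted p = 0.00177). Pkhd1, the ciliary protein mutated in polycystic kidney and liver disease, rose with the diet in both genotypes, by 1.72 in WT and 1.87 in KO (edgeR adjusted p = 0.0123 and 0.0162), but the first was not called with sex as a term and the second not without both KO NASH 1 and 5. Atp2b2, a calcium pump, rose by 4.48 in WT NASH against WT chow (edgeR adjusted p = 0.00484) and was not called there with sex as a term or among males. It was the 1 list gene lower in KO NASH against WT NASH (-3.23, edgeR adjusted p = 0.0126), also lost with sex as a term and without both KO NASH 1 and 5. Bicc1 (1.24, KO NASH against WT NASH), Elf3 (2.59) and Anxa4 (0.81, both KO NASH against WT chow) were called, each lost without both KO NASH 1 and 5 (edgeR adjusted p = 0.0430, 0.0370 and 0.0315 with them). This Bicc1 call was also lost with sex as a term. Bicc1 was called against KO chow too (1.54), and Krt23 (2.37), Pkhd1 (2.04) and Bicc1 (1.68) in KO NASH against WT chow. Each of these calls was lost without both KO NASH 1 and 5, which left Vtcn1 alone of the 6 called against WT chow. Of 33 alternatives, 32 kept the Krt23 call against WT chow, 32 the Pkhd1 call and 30 the Bicc1 call.

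Of 15 tested fetal liver and imprinted growth genes outside the 10, 4 were higher and 2 lower in KO NASH against WT NASH (9.65% of all tested genes called), 5 higher and 1 lower in KO NASH against WT chow (16.6%), 2 higher in KO chow against WT chow (5.53%), 1 lower in WT NASH against WT chow (5.93%), none was called in KO NASH against KO chow (3.29%), and 1 was higher for the interaction (0.139%). The median of these 15 was 0.23 in KO NASH against WT NASH and 0.53 in KO NASH against WT chow. Gpc1, a glypican related to Gpc3, averaged 13.1 ± 4.55 CPM (WT chow), 5.29 ± 1.44 (WT NASH), 43.4 ± 13.3 (KO chow) and 61.4 ± 7.76 (KO NASH). It rose by 1.73 in KO on chow and by 3.52 on the NASH diet (edgeR adjusted p = 0.000788 and 4.73e-07), and both calls held under all alternatives. Its interaction, 1.80 (edgeR adjusted p = 0.0451), was lost without both KO NASH 1 and 5 and in 14 of the 20 fits that left out 1 library. Peg3, an imprinted zinc finger gene, rose by 2.03 in KO NASH against WT chow (edgeR adjusted p = 0.00794), from 8.98 ± 3.80 to 36.8 ± 12.7 CPM. Igdcc4, a receptor of the immunoglobulin family, had 353 and 324 counts (15.1 and 14.7 CPM) in KO NASH 1 and 5 and 1 to 9 counts in the other 3, and was thus split as H19 was except for replicate 2. In KO chow it had 6 to 193 counts, and in the WT livers 0 to 11. Its difference for KO NASH against WT NASH was 4.34 (edgeR adjusted p = 0.0306), a call lost with sex as a term, and -0.16 without KO NASH 1 and 5. Lpl and Ly6d rose in the same comparison, by 2.59 and 3.48 (edgeR adjusted p = 0.0176 and 0.0301), both lost without KO NASH 1 and 5, and Igf2bp2 fell by 1.74 (edgeR adjusted p = 0.0163), lost with sex as a term and without KO NASH 1 and 5. Grb10 rose by 0.87 in KO NASH against WT chow (edgeR adjusted p = 0.0457), a call lost without both KO NASH 1 and 5 and in 11 of the 20 fits that left out 1 library. Tff3 was at -5.36 for KO NASH against WT NASH (edgeR adjusted p = 0.0483), which rested on WT NASH 4, at 158 CPM, and was 2.53 without it; the call was also lost without both KO NASH 1 and 5.

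Of 13 tested postnatal repressors and regulators of the fetal genes, 1 was called lower in KO chow against WT chow (5.53% of all tested genes called), in KO NASH against WT NASH (9.65%) and in KO NASH against WT chow (16.6%), and none in the other comparisons. Zhx2, a postnatal repressor of this list, was at 8.66 ± 6.20, 12.8 ± 2.83, 9.13 ± 4.53 and 11.4 ± 1.34 CPM in WT chow, WT NASH, KO chow and KO NASH, with edgeR adjusted p of 0.429 to 0.965. Zbtb20, a repressor of Afp, was at 105 ± 47.8, 140 ± 17.1, 72.7 ± 31.4 and 147 ± 34.9 CPM, with edgeR adjusted p of 0.0797 to 0.919. Neither was called. Of this list, Zhx1 fell by 0.71 in KO NASH against WT chow (edgeR adjusted p = 0.00674) and by 0.50 in KO NASH against WT NASH (edgeR adjusted p = 0.0410), both lost without KO NASH 1 and 5. The Zhx1 call against WT NASH was also lost with sex as a term. Foxa3 fell by 1.26 in KO chow against WT chow (edgeR adjusted p = 0.0425), a call lost in 15 of 20 fits that left out 1 library. It was also lost without both KO NASH 1 and 5, which are in neither group and enter only through the shared model. The other members were called in no comparison. The list's median was -0.29 in KO NASH against WT NASH and 0.11 in KO NASH against WT chow.

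Of 7 receptors and partners of IGF2 and the glypicans, Igf1, the circulating growth factor made by the liver, averaged 916 ± 243 CPM (WT chow), 840.0 ± 280.0 (WT NASH), 524 ± 120.0 (KO chow) and 363 ± 55.5 (KO NASH). It fell by 1.34 in KO NASH against WT chow and by 1.21 against WT NASH (edgeR adjusted p = 0.003 and 0.00481). It was the 1 gene of this list called in each of these comparisons, in which 16.6% and 9.65% of all tested genes were called. The first held under all alternatives, and the second was lost in females alone and without both KO NASH 1 and 5. Igfbp2, an IGF-binding protein, fell by 2.15 in WT NASH against WT chow (edgeR adjusted p = 0.00915; 5.93% of all tested genes called), lost with sex as a term. No other member was called, Igf2r and Igf1r included, and the list's median in KO NASH against WT chow was 0.27.

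Of 17 Notch and Hippo-YAP genes, pathways that steer liver cells toward bile duct fate, 2 were higher in WT NASH against WT chow (5.93% of all tested genes called), 1 in KO chow against WT chow (5.53%), 2 in KO NASH against WT NASH (9.65%), 2 in KO NASH against KO chow (3.29%) and 6 in KO NASH against WT chow (16.6%), and none was lower. Their median in KO NASH against WT chow was 0.64. The 6 called there were Notch1 (1.17), Notch2 (0.81), Hes1 (0.74), Heyl, Wwtr1 and Tead1. All 6 calls were lost without both KO NASH 1 and 5, and all 6 also with the length slope as a term. Over all tested genes, calls in this comparison fell from 2390 to 267 without both livers and to 711 with the slope term. Heyl, a target of Notch, was at 0.714 ± 0.260, 1.05 ± 0.338, 0.880 ± 0.543 and 2.74 ± 1.51 CPM in WT chow, WT NASH, KO chow and KO NASH, and was called in all 3 comparisons of KO NASH (1.42, 1.61 and 1.90 against WT NASH, KO chow and WT chow, edgeR adjusted p = 0.0450, 0.0441 and 0.0117). None of the 3 was called without KO NASH 1 and 5, and those against WT NASH and KO chow were also lost with sex as a term. Tead1 rose by 2.29 in KO chow against WT chow (edgeR adjusted p = 0.0154; 1.87 and 0.0546 without KO chow 1) and by 2.16 in KO NASH against WT chow (edgeR adjusted p = 0.0137), the latter lost without both KO NASH 1 and 5 (1.76, edgeR adjusted p = 0.107) and with the length slope as a term. The receptors Notch1 and Notch2 rose by 1.33 and 0.97 in WT NASH against WT chow (edgeR adjusted p = 0.0281 and 0.0323), both calls lost with sex as a term and in 7 of the 20 fits that left out 1 library. Hes1, a Notch target like Heyl, rose by 0.86 in KO NASH against KO chow (edgeR adjusted p = 0.0421), Hey1 by 1.47 in KO NASH against WT NASH (edgeR adjusted p = 0.0266) and Wwtr1 (TAZ) by 0.70 in KO NASH against WT chow (edgeR adjusted p = 0.0476), each lost without both KO NASH 1 and 5. The Hey1 call was also lost with sex as a term. Of 9 Wnt and progenitor genes, Lgr5 fell by 1.65 and Tnfrsf12a rose by 2.03 in KO NASH against WT NASH (edgeR adjusted p = 0.0471 and 0.0336, 9.65% of all tested genes called), and Itga6 rose by 1.48 in KO NASH against WT chow (edgeR adjusted p = 0.0136, 16.6%), all lost without both KO NASH 1 and 5. The Lgr5 and Tnfrsf12a calls were also lost with sex as a term. The median of these 9 was -0.24 in KO NASH against WT NASH and -0.36 in KO NASH against WT chow.

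**Figure D5:**
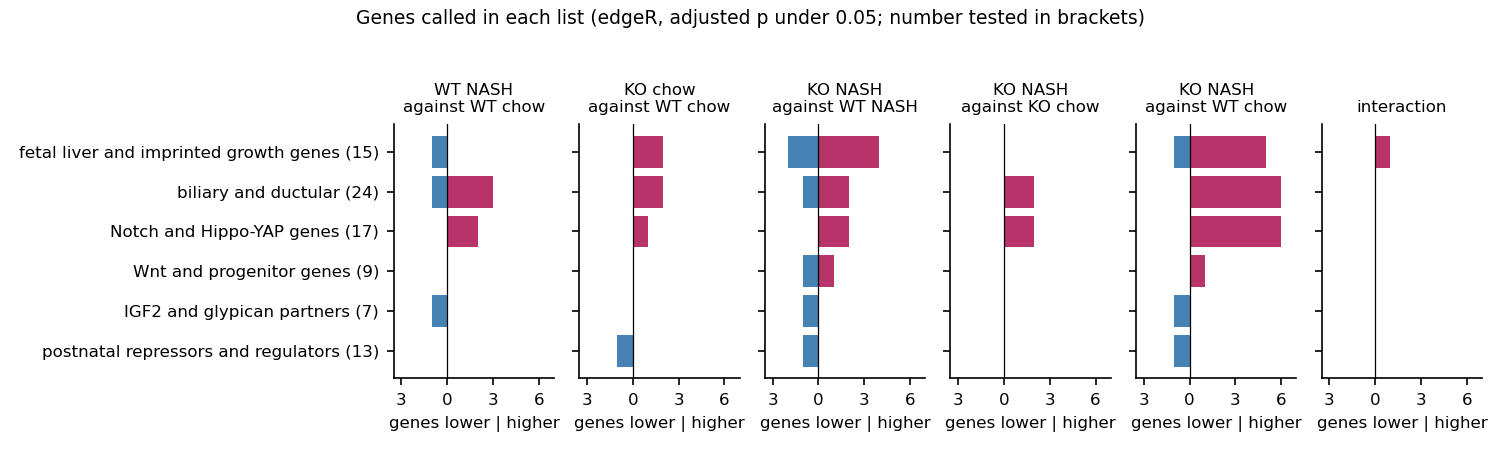
Number of genes called lower (left) and higher (right) in each list and comparison (edgeR, adjusted p under 0.05), with the number tested in brackets. The longest bars, 6 bile duct genes and 6 Notch and Hippo-YAP genes higher, are in KO NASH against WT chow, the comparison with the largest share of calls among all tested genes (16.6%).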

How the data were processed

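Whole-liver RNA of 20 mice had been sequenced. The deposited table holds raw counts per gene symbol, made by the authors with HISAT2 2.0.4 and GRCm38 among their tools and builds, per the submitters' processing notes; the counting program, annotation and use of strand were not stated. Columns were matched to samples by name, those marked HFD being read as the NASH diet. The 10 genes, the lists and the tests were chosen with earlier results of these data known.

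Symbols passing edgeR's filterByExpr (minimum count 10) were tested, 14440 of 46095, holding 99.91% of counts. A quasi-likelihood F test (edgeR 4.0.16, R 4.3.3, TMM, 20 libraries, 1 model of 4 groups) gave log2 differences, and Benjamini-Hochberg adjustment ran over all tested genes. Log2 CPM used a prior count of 2. A count of 0 was given the limit that 3 counts allow, which covers counting error only. Exonic lengths came from GENCODE M21 and covered 93.5% of tested genes, and the length slope was fitted on 9518 genes. A library with at least 100 counts over Ddx3y, Kdm5d, Eif2s3y and Uty was read as male. The genes named outside the 10 were the 3 most correlated with each over 20 libraries, predicted genes and pseudogenes left out, and the called members of each list, at most the 8 of smallest adjusted p, with Zhx2 and Zbtb20 whether called or not. A few genes that met these rules are not reported here. The scripts were tested on simulated data.

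Alternatives were RLE size factors, no low-count filter, DESeq2 1.42.0, voom with quality weights (limma 3.58.1), the compared groups alone, a replicate block, sex and length slope as terms, each sex alone, KO NASH 1 and 5 summed, and each library left out. The fits without both KO NASH 1 and 5 and without the 6 libraries of negative slope were added after seeing the data.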

Additional observations from a re-analysis of the deposited data

Results flagged for a closer look

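Among the 10 genes in the 4 groups, 6 values stood apart from the other livers of their group by Dixon's criterion (gap over range above 0.71 for 5 livers), which chance exceeds in about 1 of 20 groups. In KO chow, replicate 5 was apart for Cd24a at 22.4 CPM, Prom1 at 2.55 CPM, Krt7 at 2.49 CPM and Krt19 at 2.07 CPM. That liver, a female with a negative length slope, also had the highest neutrophil, macrophage, stellate, B and T cell and bile duct marker sums of its group, and their part in these values was not tested. H19 was at 1.52 CPM (16 counts) in WT chow 4, and Afp at 1.47 CPM (10 counts) in WT NASH 4, both in libraries of negative slope.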

How the results depend on the processing

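The number of the 10 genes called changed with the setting. For WT NASH against WT chow (0 as reported) it was 1 with DESeq2, the length slope, or sex and slope as terms (Sox9 each time), 2 with voom (Sox9 and Prom1), and 0 to 1 when single libraries were left out. For KO chow against WT chow (0) it was 1 with the slope as a term (Sox9). For KO NASH against WT NASH (1) it was 2 with DESeq2 or without the 6 libraries of negative slope (H19 and Igf2), 2 with voom (Igf2 and Sox9), 2 with sex and slope as terms (H19 and Sox9), and 0 in males, in females and without both KO NASH 1 and 5. For KO NASH against KO chow (2) it was 1 with only those groups fitted (H19), 0 in males, in females, with KO NASH 1 and 5 summed and without both, and 0 to 2 when single libraries were left out. For KO NASH against WT chow (1) it was 0 with voom. The cause of these changes was not tested. Of 1990 values of the 10 genes under alternatives, 157 changed sign where neither value was called and are counted as unchanged.

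Signs of called list genes reversed for Notch1 (-0.02) and Vtcn1 (-4.33) in WT NASH against WT chow among males, for Igdcc4 in KO NASH against WT NASH among females (-0.63) and without both KO NASH 1 and 5 (-0.16), and for Igf2bp2 there among males (0.96). Tff3 in that comparison was 0.98 with voom, 1.25 in females, 2.52 without the 6 libraries of negative slope and -5.94 to 2.53 when single libraries were left out, the highest without WT NASH 4. Its interaction was 5.40 with voom and -1.39 to 7.07 when single libraries were left out.

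Over all tested genes, calls ranged from 99 (males) to 5866 (voom) around 857 for WT NASH against WT chow, 332 (only those groups) to 5836 (voom) around 798 for KO chow against WT chow, 17 (females) to 3434 (voom) around 1393 for KO NASH against WT NASH, 0 (females) to 1835 (voom) around 475 for KO NASH against KO chow, 267 (without both KO NASH 1 and 5) to 7209 (voom) around 2390 for KO NASH against WT chow, and 4 (replicate block) to 1949 (voom) around 20 for the interaction.

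Replicate numbers did not pair the libraries: over 30 pairs of the same number the deviations correlated at -0.405 to 0.518 (median 0.0535), 13 above 0.1. Blocking on these numbers, 1 gene of the 10 was called for WT NASH against WT chow (Sox9), and the counts for the other comparisons were as reported. Counts of at most 69 for Igf2 and 28 for Afp in a liver limit what could be detected for these genes.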
